A study of Mus musculus with 75 samples.

Results

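The 10 genes described here act in G2 and mitosis, and their messenger RNA was followed through activation of mouse CD4 effector T cells, addition of regulatory T cells (Tregs) and separation of ribosome-bound RNA. They were taken as a fixed list of gene identifiers, 10 of the 53465 in the count tables. The rule that names them uses no measured value, but they were chosen with earlier results of these data known. They are Mki67 (ENSMUSG00000031004), Top2a (ENSMUSG00000020914), Cdk1 (ENSMUSG00000019942), Ccnb1 (ENSMUSG00000041431), Ccna2 (ENSMUSG00000027715), Aurka (ENSMUSG00000027496), Aurkb (ENSMUSG00000020897), Plk1 (ENSMUSG00000030867), Birc5 (ENSMUSG00000017716) and Bub1 (ENSMUSG00000027379), with symbols as RefSeq spells them. All 10 passed the filter on low counts in both assays, among 10751 genes tested in RiboTag and 12428 in SPEED. Resting CD4 T cells are held outside the cell cycle, and a signal through the T cell receptor and CD28 brings them into it. Before mitosis the kinase Cdk1 joins the cyclins Ccna2 and Ccnb1, and Plk1 and Aurka help to switch it on and to build the spindle. Aurkb and Birc5 (survivin) belong to the chromosomal passenger complex, which corrects faulty spindle attachments, while Bub1 signals from unattached kinetochores. Top2a untangles sister chromatids, and Mki67 (Ki-67, the routine marker of proliferating cells) coats mitotic chromosomes and keeps them apart. Tregs restrain the activation and expansion of other T cells, and the title of the study names their control of translation in CD4 T cell activation as its subject.

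The cells were CD4+CD25- effector T cells from spleen and lymph nodes. In the RiboTag assay they came from 5 mice of a cross of B6N.129-Rpl22tm1.1Psam/J with B6.Cg-Tg(Cd4-cre)1Cwi/BfluJ, in which Cre recombinase under the Cd4 promoter switches on a hemagglutinin-tagged ribosomal protein Rpl22. Each of these mice gave a stimulated culture with Tregs, a culture activated by anti-CD3/CD28 beads alone and one rested with IL7. RNA was sequenced from the precipitate of tagged ribosomes (IP) and from the material before precipitation (Input), which gave 30 libraries. The SPEED assay took cells of 4 B6.SJL-PtprcaPepcb/BoyJ mice, which were stimulated with the beads and given HHT for 10 min before harvest, stimulated with beads and Tregs, stimulated with beads alone, or left untreated. RNA was sequenced from polysomal (Pol) and subpolysomal (SubPol) sucrose fractions and from Input, and no HHT culture of mouse 4 and no HHT Input of mouse 2 are analysed here. A pair of libraries is labelled HHT Input of mouse 1, and whether both came from that mouse could not be settled from the labels, so the later was kept out. The Tregs were sorted as CD4+YFP+ cells, and the protocol names Foxp3 YFP-Cre mice as the source of YFP-sorted cells. The sources used here do not say how long the cultures ran or whether Tregs were taken out before lysis. Reads counted to genes numbered 1658481 to 2824875 per RiboTag library and 1566501 to 4621104 per SPEED library. Levels are CPM (counts divided by library size, with TMM scaling), in Input over the pool of all cells of a culture, so a smaller share of cycling cells and less RNA per cycling cell cannot be told apart.

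Promoters of genes of this programme are known for cell cycle homology elements (such as TTTGAA and the variant TTCGAA), bound by repressor and activator complexes of the DREAM and B-Myb type, and for CCAAT boxes bound by NF-Y. RefSeq windows of 300 bases, 250 before to 50 after a start that RefSeq's promoter table gives each gene in GRCm38.p6, matched 8 of the 10 genes, and 5 are printed 5′ to 3′ on the strand of the gene to show which of these letters they hold. Capitals mark TTTGAA, the variant TTCGAA and also CCAAT on either strand, so that CCAAT on the other strand reads ATTGG and TTTGAA on the other strand reads TTCAAA. No 2 of these motifs overlap in the sequences shown. The first is Cdk1 at chr10:69352863-69353162, the next Top2a at chr11:99024140-99024439, Mki67 at chr7:135716330-135716629, Aurka at chr2:172370521-172370820 and Ccnb1 at chr13:100786437-100786736, all on the minus strand. For Cdk1 and Ccnb1 that start is the outer end of the gene as RefSeq lists it. For Top2a it lies 10 bases inside the listed gene, for Mki67 71 bases and for Aurka 316 bases, so that the Aurka window falls wholly within the listed gene. The gene bodies of the other 5 lie at chr3:36564865-36573038 (Ccna2), chr11:69045624-69051664 (Aurkb), chr7:122159435-122169884 (Plk1), chr11:117849237-117855743 (Birc5) and chr2:127800197-127831859 (Bub1).
Cdk1: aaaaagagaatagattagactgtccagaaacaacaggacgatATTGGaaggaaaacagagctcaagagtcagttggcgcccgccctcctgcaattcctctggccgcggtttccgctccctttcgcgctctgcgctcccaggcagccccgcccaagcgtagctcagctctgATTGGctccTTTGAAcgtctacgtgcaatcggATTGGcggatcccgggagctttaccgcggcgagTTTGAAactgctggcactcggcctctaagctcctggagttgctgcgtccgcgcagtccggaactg
Top2a: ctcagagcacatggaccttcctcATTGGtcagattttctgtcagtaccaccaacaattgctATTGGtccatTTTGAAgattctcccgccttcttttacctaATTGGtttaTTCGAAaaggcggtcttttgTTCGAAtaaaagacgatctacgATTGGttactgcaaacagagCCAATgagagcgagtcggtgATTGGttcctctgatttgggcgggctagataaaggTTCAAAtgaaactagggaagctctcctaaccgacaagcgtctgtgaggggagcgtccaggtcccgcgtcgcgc
Mki67: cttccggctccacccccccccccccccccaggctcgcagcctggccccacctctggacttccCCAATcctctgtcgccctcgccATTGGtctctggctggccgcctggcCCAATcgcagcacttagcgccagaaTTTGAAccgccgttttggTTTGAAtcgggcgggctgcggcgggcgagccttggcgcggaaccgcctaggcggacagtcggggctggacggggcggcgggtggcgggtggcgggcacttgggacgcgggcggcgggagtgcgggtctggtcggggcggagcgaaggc
Aurka: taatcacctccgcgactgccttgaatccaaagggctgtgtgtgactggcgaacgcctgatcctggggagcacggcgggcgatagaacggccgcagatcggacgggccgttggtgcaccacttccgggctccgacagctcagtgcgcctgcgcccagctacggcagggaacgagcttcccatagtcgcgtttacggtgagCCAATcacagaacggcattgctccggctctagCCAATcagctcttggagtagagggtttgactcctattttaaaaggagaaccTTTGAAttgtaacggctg
Ccnb1: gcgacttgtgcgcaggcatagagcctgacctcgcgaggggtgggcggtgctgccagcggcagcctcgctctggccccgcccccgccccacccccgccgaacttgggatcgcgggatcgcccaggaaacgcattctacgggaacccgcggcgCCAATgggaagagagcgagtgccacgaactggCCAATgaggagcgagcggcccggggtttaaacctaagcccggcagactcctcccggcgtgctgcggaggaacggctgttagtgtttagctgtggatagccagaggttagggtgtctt
TTTGAA was present in 5 of the 8 windows (Mki67, Top2a, Cdk1, Aurka and Plk1) and in 17.9% of all 32851 windows of this length. TTCGAA was present in Top2a and Bub1, 2 of the 8, and in 1.56% of all windows. CCAAT was present in 7 of the 8 windows and in 37.4% of all windows, and Top2a held 6 copies. The Birc5 window held none of these motifs. In Aurka and Plk1 the TTTGAA match, and in Bub1 the TTCGAA match, lay after the start. These are matches of letters and no binding was measured.

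All 10 genes rose on stimulation, in both assays and in every fraction sequenced. Cdk1 had 286, 283, 238, 241 and 228 CPM in RiboTag Input of stimulated cultures of mice 1 to 5, against 11.1, 7.83, 8.09, 2.86 and 10.3 CPM in the IL7-rested cultures. The lowest stimulated value lay far above the highest rested one. The rise was 31.5-fold (95% interval 22.5 to 44.1, adjusted p 6.36e-18 in edgeR's quasi-likelihood test with Benjamini-Hochberg adjustment, two-sided). Its mitotic partner Ccnb1 had 149, 129, 126, 111 and 109 CPM in stimulated and 3.25, 1.84, 4.28, 0.477 and 0.514 CPM in rested cultures, a 58.0-fold rise (interval 38.9 to 86.5, adjusted p 7.41e-18). Ccna2, which serves S phase as well, averaged 459 ± 60.3 CPM in stimulated and 6.99 ± 4.48 CPM in rested cultures (SD, n = 5 each). For each of the 10 genes every stimulated library was above every rested one, a pattern that 24.3% of all tested genes showed. By the test, 10 of 10 were higher in RiboTag Input, where 32% of all tested genes were. The members' median was 5.39 on the log2 scale and that of all genes -0.01.

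The size of the rise differed between members. In RiboTag Input it was smallest for the spindle pole kinase Aurka, at 20.9-fold (interval 16.5 to 26.4), and largest for the passenger kinase Aurkb, at 93.3-fold (interval 67.0 to 130.0). Aurkb had 350.3, 341, 297, 299 and 297 CPM in stimulated and 1.86, 5.99, 3.81, 3.82 and 1.03 CPM in rested cultures. Aurka had 243, 260.1, 212, 214 and 206 CPM in stimulated and 12.1, 12.0, 8.57, 6.68 and 14.9 CPM in rested cultures. The intervals of the aurora kinases did not meet, but these genes were picked as the ends of the range and no test between genes was run. The same pair stood at the ends of the range in SPEED Input, against untreated cells of other mice: Aurka 6.27-fold (interval 4.38 to 8.99) and Aurkb 175-fold (interval 111 to 276). Untreated SPEED cells held Aurka at 15.7, 27.5, 24.2 and 30.6 CPM in Input, all above the RiboTag rested values although the assays were scaled separately, and stimulated cells at 121 to 184 CPM. Birc5, the partner of Aurkb in the passenger complex, rose 112-fold in SPEED Input and 48.7-fold in RiboTag Input. Across the 10 genes the log2 rises of both Inputs, which share no library, correlated with r = 0.75 (Spearman's rho 0.76), given as a description over 10 genes that are not independent.

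**Figure D1:**
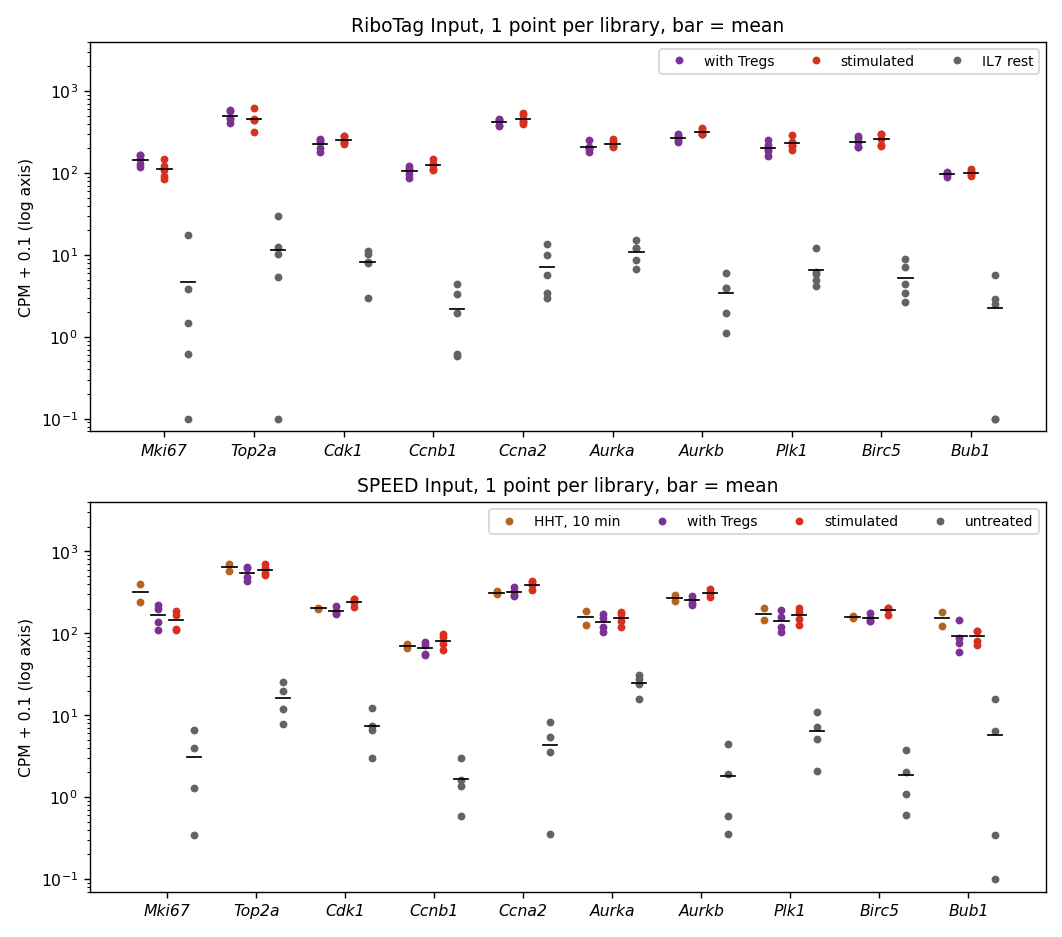
Levels of the 10 genes in Input of RiboTag (top) and SPEED (bottom), in CPM + 0.1 on a log axis; each point is a library, each bar the mean of a culture type. Stimulated cultures with or without Tregs or HHT sit above rested or untreated cultures for every gene, and the points of IL7-rested Mki67 spread from 0 to 17.2 CPM.

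At rest the counts were few. Over all rested RiboTag libraries and members, 11 of 100 values were 0 and the highest was 65 reads, and over the untreated SPEED libraries 10 of 120 were 0 and the highest was 143 reads. The summed level of the 10 genes was 67.8, 98.5, 43.3, 44.4 and 51.9 CPM in rested RiboTag Input of mice 1 to 5, so mouse 2 stood highest. Mki67 at rest had 8, 3, 0, 36 and 1 reads in these libraries, where mouse 4 alone gave most of the reads. Stimulated cultures held Mki67 at 121, 149.7, 84.2, 107 and 91.5 CPM, and the rise was 23.9-fold (interval 12.8 to 44.7, adjusted p 1.7e-10). On the log2 scale that rise was 4.58, and 6.24 without mouse 4. With so few reads a single mouse moved several rises by over 1.5 times, each time to a larger one. In RiboTag Input, Top2a and Bub1 had log2 rises of 5.91 and 6.16 without mouse 2, against 5.28 and 5.49 with all mice. In SPEED Input, the log2 rise of Mki67 was 6.34 without mouse 1, and those of Aurkb and Bub1 were 8.56 and 5.24 without mouse 2, against 5.61, 7.45 and 3.98 with all mice.

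The fractions gave the same calls. In the RNA of tagged ribosomes 10 of 10 were higher in stimulated than in rested cells (33.6% of all tested genes were), with rises of 31.8 to 259.8-fold. The upper end is Bub1, which had 84.5, 102, 89.3, 73.4 and 70.0 CPM in stimulated IP, against 2, 0, 0, 1 and 0 reads in rested IP. Bub1 and Ccnb1 had log2 rises of 8.94 and 6.96 in IP without mouse 1, against 8.02 and 6.36 with all mice. The ratio of pooled reads of Bub1 was 311 with an exact counting interval of 106 to 1512, which covers counting error only. In SPEED Input, Pol and SubPol 10 of 10 were higher in stimulated than in untreated cells, where 27.9%, 28.5% and 27.5% of all tested genes were. The rises ran from 6.27 to 175-fold in Input and from 6.87 to 170.2-fold in Pol. Without mouse 1 the log2 rises of Plk1 and Bub1 in Pol were 5.80 and 5.83, without mouse 3 that of Mki67 was 6.97 and without mouse 4 that of Aurkb 8.11, against 5.11, 4.38, 5.83 and 7.41. In SubPol, leaving out mouse 2 gave log2 rises of 5.96 for Mki67, 6.18 for Cdk1 and 8.55 for Bub1, against 4.94, 5.19 and 7.85. In SubPol the untreated libraries held 1 read of Ccnb1 and 3 reads of Bub1 in all 4 together, and the pooled ratios were 631 (exact interval 113 to 24957) for Ccnb1 and 268 (91.3 to 1301) for Bub1. The read of Ccnb1 came from mouse 2, and the other 3 had none.

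None of the 10 genes passed the test between cultures with Tregs and stimulated cultures in any fraction. That test did not pair libraries by mouse, and fits with the mouse as a block gave no call either. The estimates lay below 0 for 8 of 10 genes in RiboTag Input and 9 of 10 in SPEED Input, with medians of -0.13 and -0.26 on the log2 scale, against 0.00 and 0.02 for all genes. The stimulated libraries are those that were set against rested or untreated cells above. In RiboTag Input 0 of 10 passed the edgeR test against stimulated cultures, where 2.76% of all tested genes were higher and 1.77% lower. None had an unadjusted p under 0.05, and DESeq2 called 0 as well. The summed level was 2464, 2720.2, 2085, 2604 and 2204 CPM with Tregs and 2787, 2991, 2258, 2364 and 2290.4 CPM without, for mice 1 to 5, and the ranges overlapped. Cdk1 had 250.0, 260.1, 202, 240.0 and 181 CPM with Tregs and 286, 283, 238, 241 and 228 CPM in stimulated cultures. It was lower with Tregs in 5 of 5 mice, by a log2 change of -0.17 ± 0.17 (SE; interval -0.51 to 0.18; adjusted p 0.661). Ccnb1, Aurka and Aurkb were also lower in each of the 5 mice, at -0.25, -0.12 and -0.24 on the log2 scale. So 4 of 10 genes were lower in every mouse, which 13.4% of all tested genes were, and the adjusted p of these 3 was 0.497, 0.659 and 0.401.

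SPEED Input gave values of the same small size. Against stimulated cultures 0 of 10 passed the edgeR test (0.459% of all tested genes were higher and 0.129% lower), none had an unadjusted p under 0.05, and DESeq2 called 0. The largest difference was in Cdk1, with 214, 189, 171 and 177 CPM with Tregs and 266, 242, 263 and 207 CPM in stimulated cultures, a log2 change of -0.38 ± 0.21 (SE; adjusted p 0.421). It was lower with Tregs in 4 of 4 mice. Ccnb1, Ccna2, Aurkb and Birc5 were lower in 4 of 4 mice too, which makes 5 of 10 genes where 15.9% of all tested genes were lower in every mouse. Their log2 changes ran from -0.33 to -0.30.

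Mki67 ran the other way in Input, as did Top2a in RiboTag Input (mean 498 CPM with Tregs and 455 CPM without). Mki67 had 117, 168, 130.4, 165 and 146 CPM with Tregs and 121, 149.7, 84.2, 107 and 91.5 CPM in stimulated RiboTag Input, higher with Tregs in 4 of 5 mice. In SPEED Input it had 220.4, 199, 139 and 109 CPM with Tregs and 166, 187, 113 and 109 CPM without, higher in 3 of 4 mice. The log2 changes were 0.39 ± 0.31 and 0.21 ± 0.32 (SE), with adjusted p 0.553 and 0.827 in the edgeR test, so neither passed. The fractions differed in direction. Mean Mki67 with Tregs and without was 131 and 93.1 CPM in IP, 95.2 and 89.1 CPM in Pol, and 91.0 and 98.8 CPM in SubPol. A test of whether the Treg change differed between the assays, over Input of both, passed for 0 of 10 genes (0.166% of the 10846 genes tested were higher in RiboTag and 0.295% lower), and 0 had an unadjusted p under 0.05. Whether RNA of Tregs themselves adds to Input, Pol or SubPol was not tested. The ribosomal tag used for IP came from the mice that gave the effector cells.

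The fractions of ribosome-bound RNA likewise held no called difference. In IP 0 of 10 passed the test (3.45% of all tested genes were higher and 2.24% lower), in Pol 0 of 10 (0.177% and 0.105%) and in SubPol 0 of 10 (0.821% and 0.33%). None of the 30 values had an unadjusted p under 0.05, and DESeq2 called 0 in each. Ccnb1 in IP had 97.1, 123, 101, 136 and 99.5 CPM with Tregs and 136, 157, 127, 144 and 119 CPM in stimulated cultures, lower in 5 of 5 mice, with a log2 change of -0.30 ± 0.18 (SE; adjusted p 0.366). It was the 1 gene of 10 lower in IP of every mouse, as were 13.4% of all tested genes. In Pol Cdk1, Ccnb1, Ccna2, Aurka and Aurkb were lower in 4 of 4 mice (5 of 10, against 14.3% of all tested genes). In SubPol it was Cdk1, Ccnb1, Ccna2, Aurkb and Birc5 (5 of 10, against 13.2%). The 95% intervals bound what could have been missed. They lay within a 2-fold change either way for 9 of 10 genes in RiboTag Input, RiboTag IP and Pol and for 10 of 10 in SPEED Input and SubPol. Mki67 was the exception in both RiboTag fractions, with upper bounds of 2.05-fold and 2.20-fold, and Bub1 in Pol, with a lower bound of 0.472-fold.

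**Figure D2:**
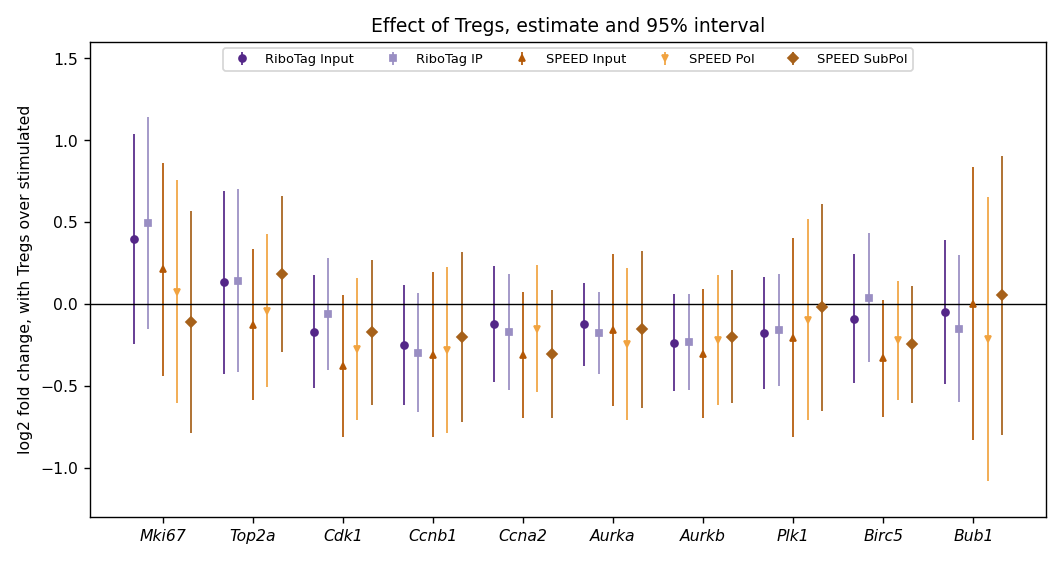
Log2 fold change of each gene in cultures with Tregs over stimulated cultures, in 5 fractions of the 2 assays (RiboTag n = 5 mice, SPEED n = 4); symbols are the edgeR estimates and lines their 95% intervals. Every interval includes 0, and most estimates outside Mki67 and Top2a lie a little under it.

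The level of each message in the RNA of tagged ribosomes was compared with its level in Input, as IP over Input. Because scaling is done within a library, this ratio is relative to other messages and does not give the share of a message on ribosomes. In stimulated cells 0 of 10 genes passed (0.205% of all tested genes were higher and 0.772% lower), and in cultures with Tregs 0 of 10 (0.67% and 1.18%), with none at an unadjusted p under 0.05 and 0 by DESeq2 in either. Aurka, Aurkb and Plk1 were higher in IP in 5 of 5 stimulated cultures (3 of 10 genes, against 13.4% of all tested genes), and Bub1, also a kinase, was lower in 5 of 5 (1 of 10, against 9.68%). Aurkb had 421, 453, 311, 369.8 and 332 CPM in IP and 350.3, 341, 297, 299 and 297 CPM in Input of mice 1 to 5, a log2 ratio of 0.25 ± 0.14 (SE; adjusted p 0.457). For Bub1 the ratio was 0.800, 0.907, 0.900, 0.763 and 0.769, a log2 value of -0.27 ± 0.22 (adjusted p 0.651). With the culture as a block, Aurkb in cultures with Tregs passed, at an adjusted p of 0.0335. In rested cells Bub1 was lower in IP than in Input, 1 of 10 where 3.54% of all tested genes were lower, with a log2 ratio of -2.80 (adjusted p 0.0289). That call rests on 2, 0, 0, 1 and 0 reads in IP and 6, 12, 0, 5 and 0 reads in Input, and it was lost without mouse 2 (log2 ratio -1.80) or mouse 4 (-2.97), while without mouse 1 the ratio was -3.62 and passed. It was also lost in mice 3 to 5 alone, and Bub1 did not meet the filter on low counts in a fit of only the groups compared. The change of the ratio on stimulation passed for 0 of 10 genes (0.0093% of all tested genes were higher and 0.0186% lower), with 2 at an unadjusted p under 0.05. Its change with Tregs passed for 0 of 10 (0% and 0%) with none at that p, and DESeq2 called 0 in both.

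In stimulated cells 7 of 10 genes were higher in Pol than in SubPol, where 23.6% of all tested genes were: the kinases Cdk1, Plk1, Aurka and Aurkb, the cyclins Ccnb1 and Ccna2, and Top2a. Aurkb had 419, 447, 322 and 433 CPM in Pol and 235, 242, 177 and 189 CPM in SubPol of mice 1 to 4, 1.92-fold higher (interval 1.45 to 2.54, adjusted p 0.000148). Every Pol library of Aurkb was above every SubPol library, as for 4 of the 10 genes and 22.1% of all tested genes. Top2a had 486, 424, 349 and 360.0 CPM in Pol and 223, 252, 216 and 157 CPM in SubPol, 1.91-fold higher (adjusted p 0.00125), again without overlap. Each of the 7 was higher in Pol in 4 of 4 mice, as were 30.5% of all tested genes, with a members' median log2 ratio of 0.76 (all genes -0.01). The 7 folds ran from 1.38 (Ccna2, adjusted p 0.0452) to 1.92. Top2a, Cdk1, Aurka and Aurkb passed whichever mouse was left out, and under every other scaling, filter, block and tool tried on this ratio. Plk1 was lost without mouse 1, 2 or 4, with no filter on low counts and in DESeq2, Ccna2 without mouse 2 or 4, under RLE scaling and with no filter, and Ccnb1 without mouse 1 or 4.

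The other 3 genes were not higher in Pol. Birc5 had 188, 212, 155 and 210.3 CPM in Pol and 243, 265, 223 and 247 CPM in SubPol. It was lower in Pol in 4 of 4 mice, as were 30% of all tested genes. Its groups did not overlap, which made 1 of 10 genes lower without overlap, against 21.5% of all tested genes. Birc5 did not pass the edgeR test (log2 -0.36 ± 0.18, SE, adjusted p 0.102), though DESeq2 and a fit of only the groups compared did call it. So the chromosomal passenger partners Aurkb and Birc5 had intervals that did not meet, 0.54 to 1.34 and -0.72 to 0.00418 on the log2 scale. The difference between these genes was not tested. Mki67 had a log2 ratio of -0.12 ± 0.34 and the checkpoint kinase Bub1 of -0.17 ± 0.43 (SE), and neither passed the test. In mouse 4 Mki67 had 0.499 times as much in Pol as in SubPol, against 1.07, 0.986 and 0.963 in mice 1 to 3.

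Set against Input instead of SubPol, 0 of the 10 genes passed in stimulated cells, and DESeq2 was not run on that ratio. Top2a then turned round, with 0.691, 0.677, 0.671 and 0.661 times as much in Pol as in Input of mice 1 to 4 and 0.317, 0.402, 0.415 and 0.287 times as much in SubPol as in Input. Both sucrose fractions thus held less Top2a, as CPM, than the Input of the same culture. Mki67 was below its Input in both fractions of each mouse as well. The call for the 7 genes is therefore one of Pol relative to SubPol.

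The same 7 genes were higher in Pol than in SubPol with Tregs, where 22.6% of all tested genes were, by 1.54-fold (Ccna2) to 1.89-fold (Aurkb). Leaving out mouse 2 kept Top2a, Cdk1 and Aurkb, and leaving out mouse 4 kept Ccna2, Aurka and Aurkb. Without mouse 1, Ccnb1 and Plk1 were lost. Plk1 was also lost under RLE scaling, with no filter on low counts and in DESeq2. Plk1 had 209, 193, 123 and 133 CPM in Pol and 140.1, 110.4, 80.2 and 55.9 CPM in SubPol (adjusted p 0.0430). Tested directly, the change of the ratio with Tregs passed for 0 of 10 genes and for 0% of all genes tested, none of the 10 had an unadjusted p under 0.05, and DESeq2 called 0. In untreated cells 4 of 10 were higher in Pol (Top2a, Cdk1, Ccnb1 and Aurka; 21.9% of all tested genes) and Birc5 was lower (17.8%). Birc5 had 2.93, 2.05, 4.16 and 1.84 CPM in Pol and 5.23, 10.4, 0.808 and 6.37 CPM in SubPol of untreated mice 1 to 4, so mouse 3 ran the other way, and it did not pass without mouse 1, 2 or 4 (log2 ratio -1.01, and -0.37 without mouse 2 and -1.65 without mouse 3). Cdk1 had 7.17 to 14.6 CPM in Pol and 0.980, 11.4, 0.404 and 6.90 CPM in SubPol, and did not pass without mouse 1, 3 or 4 (log2 ratio 1.05, and 0.38 without mouse 1 and 2.19 without mouse 2). Top2a did not pass without mouse 3. Aurka had 36.0, 23.8, 29.1 and 27.5 CPM in Pol and 9.48, 11.4, 11.7 and 17.0 CPM in SubPol of untreated cells, 2.41-fold (interval 1.56 to 3.72, adjusted p 0.00112). With only the untreated Pol and SubPol libraries in the fit, 5 of the 10 genes (Ccnb1 not among them) met the filter on low counts, and of these Aurka alone passed the test. The change of the ratio on stimulation passed for Ccnb1, with a change of -3.93 on the log2 scale (adjusted p 0.0227; 1.04% of all tested genes were lower), which rests on the single read of Ccnb1 in untreated SubPol, from mouse 2. Without mouse 2 the Ccnb1 change was -6.00 and passed. It was lost without mouse 1, 3 or 4, at -3.34, -3.34 and -3.77, and as Pol over Input it was -0.78 and did not pass.

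**Figure D3:**
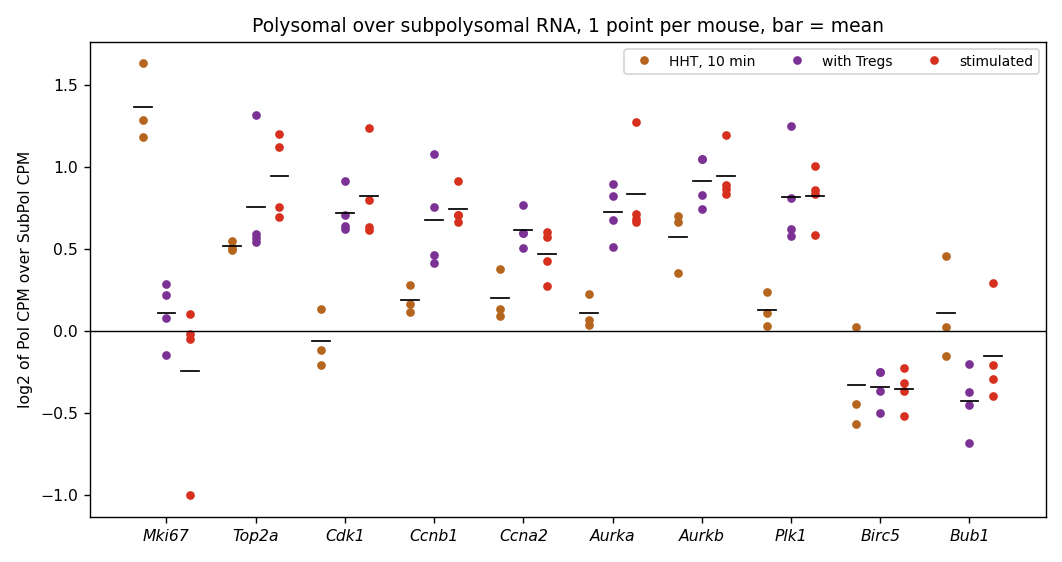
Log2 of the CPM in Pol over the CPM in SubPol of the same culture, 1 point per mouse and a bar for the mean; HHT has 3 mice, the other cultures 4. Cdk1, Ccnb1, Ccna2, Aurka, Aurkb, Plk1 and Top2a lie above 0 in every culture with Tregs and every stimulated culture, Birc5 below 0, and Mki67 reaches its highest values with HHT.

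HHT, given for the last 10 min, was followed by a higher share of Mki67 among the reads of the polysomal fraction. Mean Mki67 was also higher with HHT in Input (317 against 144 CPM) and in SubPol (181 against 98.8 CPM), where it did not pass the test. Mki67 had 478, 502 and 404 CPM in Pol of HHT cultures of mice 1 to 3, against 104, 107, 105 and 40.2 CPM in Pol of stimulated cultures of mice 1 to 4. The groups did not overlap, and the difference was 5.06-fold (interval 3.08 to 8.29, adjusted p 2.65e-05). Mouse 4 was the lowest of the stimulated libraries and has no HHT partner here, and without it Mki67 still passed. Top2a had 829.9, 876 and 699 CPM with HHT and 486, 424, 349 and 360.0 CPM in stimulated Pol, 1.98-fold (adjusted p 0.0114). Bub1 had 190.1, 205 and 157 CPM with HHT and 72.0, 81.9, 66.3 and 48.9 CPM in stimulated Pol, 2.70-fold (adjusted p 0.0498). Thus 3 of 10 genes were higher with HHT in Pol, where 2.83% of all tested genes were, and 3 of 10 did not overlap, where 9.75% did not. This comparison was added after the values had been seen. Bub1 did not pass without mouse 1, 2, 3 or 4, under RLE scaling, with the other filters or in DESeq2, and Top2a not without mouse 1 or 2.

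In SubPol of HHT cultures 4 of 10 genes were higher than in stimulated SubPol, where 15.1% of all tested genes were, in a comparison also added after the values were seen. They were Top2a, Bub1, Plk1 and Aurka. Top2a had 585, 601 and 497 CPM with HHT and 223, 252, 216 and 157 CPM in stimulated SubPol, 2.64-fold (interval 1.86 to 3.74, adjusted p 3.71e-05). Top2a alone passed without mouse 1, without mouse 2, without mouse 4 and with no filter on low counts. Aurka was also lost without mouse 3 and under RLE scaling, and DESeq2 called Top2a and Aurka. Cdk1 had 276, 261 and 217 CPM with HHT and 201, 195, 158 and 159.9 CPM in stimulated SubPol, and did not pass (adjusted p 0.108). In all 5 of 10 genes had no overlap in SubPol with HHT higher, as had 17.7% of all tested genes. In Input, with 2 HHT libraries, 0 of 10 passed (0.105% of all tested genes were higher and 0% lower), with Mki67 at an unadjusted p of 0.00451 and DESeq2 at 0. Mki67 had 395 and 239 CPM in HHT Input of mice 1 and 3 and 166, 187, 113 and 109 CPM in stimulated Input of mice 1 to 4, a 2.19-fold difference (interval 1.30 to 3.72, adjusted p 0.424). The second library labelled HHT Input of mouse 1 had 377 CPM, and with it in the fit 0 of 10 passed as well (Mki67 adjusted p 0.115).

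**Figure D4:**
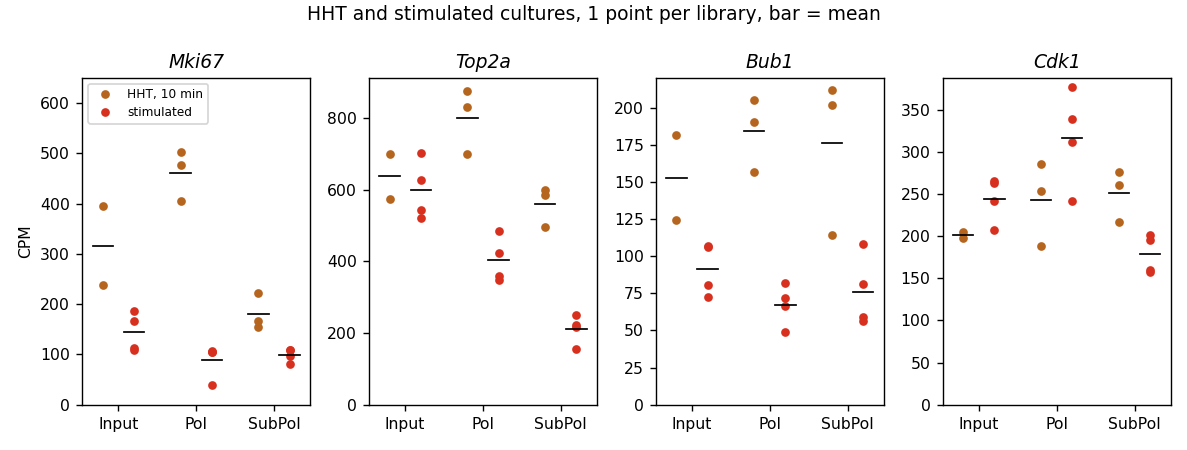
CPM of Mki67, Top2a, Bub1 and Cdk1 in Input, Pol and SubPol of HHT and stimulated SPEED cultures, 1 point per library and a bar for the mean, each panel with its own axis from 0. Mki67 in Pol reaches 404 to 502 CPM with HHT and 40.2 to 107 CPM in stimulated cultures, and Cdk1 is the panel in which the HHT points do not stand above in Pol.

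With HHT Mki67 was 2.55-fold higher in Pol than in SubPol (interval 1.52 to 4.29, adjusted p 0.0201), 1 of 10 genes where 4.51% of all tested genes were. The ratio was 3.10, 2.27 and 2.43 in mice 1 to 3. The ratio of Cdk1 was 0.920, 1.10 and 0.866 with HHT and 1.55, 1.74, 1.53 and 2.36 in stimulated cultures, and these did not overlap. Top2a, Ccnb1, Aurka, Aurkb and Plk1 also had lower ratios with HHT without overlap, and Mki67 had higher ones. For Aurka they were 1.02 to 1.17 with HHT and 1.58 to 2.42 in stimulated cultures. The ratios of Ccna2, Birc5 and Bub1 overlapped. How many of all genes showed no overlap of this ratio was not counted, so it is not known whether the 10 genes differ from other genes in this. Tested as a change of the ratio with HHT, 1 of 10 genes rose (10.3% of all tested genes) and 1 fell (12.7%). Mki67 rose by 1.47 ± 0.50 (log2, SE; adjusted p 0.0276) and the Cdk1 change was -0.88 ± 0.33 (adjusted p 0.0490). All 3 calls were lost when mouse 1, 2 or 3 was left out, which leaves 2 HHT mice, and with no filter on low counts, and that of Cdk1 also without mouse 4, under RLE scaling and with a filter at 1 CPM. DESeq2 called the Cdk1 change but neither Mki67 value. Set against Input, none of the 3 passed: the log2 ratio of Mki67 with HHT was 0.54 (Pol over SubPol 1.35) and the change of Cdk1 -0.11. For 7 of 10 genes the ratio was above 1 in every HHT mouse, as it was for 24.1% of all tested genes. Among them were Top2a (1.41 to 1.46) and Aurkb (1.27, 1.63 and 1.58), with Aurkb below its stimulated range of 1.78 to 2.29. Aurka (1.05, 1.17 and 1.02) and Plk1 (1.08, 1.18 and 1.02) lay closer to 1. The change of Aurka passed only with the mouse or the culture as a block (main adjusted p 0.168). Because scaling is done within a library, these ratios cannot show messages as a whole moving between fractions.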

How the data were processed

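For each assay the authors deposited a table of unnormalised counts per gene identifier, in whole numbers and without symbols. The submitters' processing notes name GRCm38 as the build, and as tools SAMtools 1.2, HTSeq 0.4.1, FastQC 0.11.3 and Picard 1.134. The protocols in the labels name SMART-Seq v4, a kit that keeps no strand, so reads of a gene and of an antisense partner were counted alike. The aligner is not given in the sources used here. Of the RiboTag columns, 16 match no sample here and were left unused. HHT Input of mouse 1 appears as a pair of SPEED libraries with 1 title, of which the later was kept out of the fits, and 1 of them may be of another mouse.

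From the deposited counts, R 4.3.3 with edgeR 4.0.16 gave filterByExpr (minimum count 10, minimum total 15), TMM scaling and, per assay, 1 robust quasi-likelihood fit over all its groups (30 RiboTag and 44 SPEED libraries, common biological coefficient of variation 0.188 and 0.215). Tests were two-sided over all genes, with Benjamini-Hochberg adjustment at 0.05. Changes of IP over Input and Pol over SubPol were contrasts within the same fit, and the Treg change in Input was compared between assays in 1 fit of 18 libraries. SE was taken as log2 fold change divided by the root of F. DESeq2 1.42.0 was an alternative, and the fit was tested on simulated data. CPM are counts scaled to library size with TMM.

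Per the labels a mouse number stands for 1 animal, so the numbers pair the libraries. Their deviations from the group means correlated with a mean r of 0.149 in RiboTag and 0.0376 in SPEED, against -0.0372 and -0.0125 between mice. The mouse as a block was an alternative, as were the culture as a block, other scaling and filters, only the groups compared, and each mouse left out. Among 121 pairs of libraries within groups, chi-square over its degrees of freedom was 1.79 or more, so none was counted as a copy.

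The members and lists were chosen with earlier results of these data known. The rule was to name all 10 members in every comparison, and other genes only where a table pairs their identifiers with symbols. None did, so lists of other mitotic genes, the genes most like the members and the cell type markers were not used, and the labelled cell type was not checked against markers. Promoter windows are from RefSeq.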

Additional observations from a re-analysis of the deposited data

Results flagged for a closer look

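Within groups of 4 or 5 libraries, 7 of 150 sets of CPM values had a library standing apart by Dixon's criterion, 4.67% where chance gives about 1 in 20. Mki67 in IL7-rested RiboTag Input reached 17.2 CPM in mouse 4, and the rest had 0 to 3.71 CPM. For Plk1 in that group mouse 2 gave 12.0 CPM and the rest 4.11 to 6.03 CPM. In mouse 3 Cdk1 stood at 224 CPM in IP with Tregs, against 278 to 294 CPM elsewhere in that group. In stimulated Pol mouse 4 had Mki67 at 40.2 CPM, while mice 1 to 3 had 104 to 107 CPM. In untreated SubPol Ccnb1 was 0.346 CPM in mouse 2, a single read, and 0 in the others, and Plk1 was 0 in mouse 2 and 2.61 to 2.83 CPM in the others. Aurkb reached 5.88 CPM in untreated Pol of mouse 4, and mice 1 to 3 lay between 0.925 and 1.76 CPM.

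A test of the difference between conditions passed for 3 changes of Pol over SubPol. That of Ccnb1 on stimulation was -3.93 on the log2 scale. That of Mki67 with HHT was 1.47, and that of Cdk1 with HHT was -0.88. All 3 were lost under several alternatives, and the causes were not tested.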

How the results depend on the processing

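Rises on stimulation held for 10 of 10 genes in every fraction, and no Treg comparison within a fraction gave a call, under every alternative run. Fits with the mouse as a replicate block (paired by mouse) called 2 genes instead of 1 for Pol over SubPol with HHT, 6 instead of 5 in untreated cells and 3 instead of 2 for its change with HHT, and changed no other count. With the culture as a block, IP over Input with Tregs had 1 call and the change of Pol over SubPol on stimulation 2. With only the groups compared, counts were 0 for IP over Input at rest, 1 for Pol over SubPol untreated, 0 for its change on stimulation and 7 for SubPol with HHT over stimulated. With no filter on low counts, Pol over SubPol had 3 calls untreated and 0 with HHT, its change with HHT 0, and SubPol with HHT 1. DESeq2 gave 0 for Pol over SubPol with HHT, 1 for its change and 2 for SubPol with HHT. RLE scaling and a filter at 1 CPM each gave 1 for the change with HHT. RiboTag mice 3 to 5 alone gave 0 for IP over Input at rest. Without the untreated SubPol library of mouse 3, Pol over SubPol had 3 calls untreated and 0 for the change on stimulation. Pol over Input in place of Pol over SubPol gave 0 in every condition and contrast, and turned Birc5 untreated to 0.75, Top2a stimulated to -0.56 and Top2a with Tregs to -0.48 on the log2 scale. Counts that moved less were, for Pol over SubPol stimulated, 6 under RLE scaling (Ccna2 lost) and 5 with no filter (Ccna2 and Plk1 lost), and with Tregs 6 in each (Plk1 lost). In both conditions DESeq2 lost Plk1 and gained Birc5, and a fit of only the groups compared gained Birc5. Untreated, DESeq2 gained Plk1 and Bub1, the culture block lost Cdk1 and Birc5 and gained Bub1, and a filter at 1 CPM lost Birc5. For HHT over stimulated, Bub1 was lost in Pol under RLE scaling, either other filter and DESeq2, and Aurka in SubPol under RLE scaling. Leaving out 1 mouse gave 0 to 1 calls for IP over Input at rest. For Pol over SubPol it gave 3 to 5 untreated, 4 to 7 stimulated, 3 to 7 with Tregs and 0 to 1 with HHT, and 0 to 1 for its changes on stimulation and with HHT. For HHT over stimulated it gave 1 to 2 in Pol and 1 to 3 in SubPol. Of 3031 single-gene values under alternatives, 2898 stayed on their side of the threshold, 112 became weaker, 18 stronger and 3 reversed. The causes were not tested. Depth limits the rested and untreated values most, where counts reach 0.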
